A study of Mus musculus with 2 samples.

Results

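The family loci of Mir15a, Mir16-1, Mir15b, Mir16-2, Mir195a and Mir497 are 3 places in the mouse genome that each hold 2 microRNA (miRNA) hairpins of one family. The members were fixed by name: Mir15a and Mir16-1 of the Dleu2 locus, Mir15b and Mir16-2 of the Smc4 locus, and Mir195a and Mir497 of the Mir497/Mir195a locus. They are 6 of the 2202 miRNA genes counted. The data are small RNA libraries of C2C12, a myoblast line raised from injured thigh muscle of C3H mice, obtained from ATCC. There was 1 group of 2 biological replicates, with no treatment, genotype change, time point or culture stage given, so no condition could be compared. All RNA came from a single line and was limited to fragments under 30 nucleotides.

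A miRNA hairpin is cut into a short duplex, and one arm is loaded into an Argonaute protein, where bases 2 to 8 of the arm, the seed, pair with messenger RNAs. The family is known to repress cyclins, cyclin-dependent kinases and the survival gene Bcl2, and so acts as a brake on the cell cycle. The human counterparts of Mir15a and Mir16-1 lie in a region often deleted in chronic lymphocytic leukaemia. In mice, the products of Mir195a and Mir497 are known to hold muscle stem cells in quiescence.

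The mature 5p arms are shown because they show both what groups the genes and what the counts can separate. They are given 5′ to 3′ from RefSeq on GRCm38.p6, with the seed in capitals. All 6 members were matched in that table, whose miR-16-5p entry is the same for Mir16-1 and Mir16-2.
miR-15a-5p: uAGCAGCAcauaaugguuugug
miR-15b-5p: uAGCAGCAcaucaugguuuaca
miR-16-5p: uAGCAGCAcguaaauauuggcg
miR-195a-5p: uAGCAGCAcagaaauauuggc
miR-497a-5p: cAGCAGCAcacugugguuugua

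All 5 arms carried the same seed and differed behind it, and miR-497a-5p also differed from the others at base 1. Counting from base 1 of miR-16-5p, miR-195a-5p differed from it only by G10A and U11G over the 21 bases compared. The arms miR-15a-5p and miR-15b-5p matched at 18 of 22 bases and first differed at base 12. The arm miR-497a-5p was the farthest from miR-16-5p, with 11 of 22 bases alike.

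The sequence of miR-16-5p stood whole in 2 hairpins, Mir16-1 and Mir16-2, while no other mature arm of the members was found in the hairpin of another gene. The Mir15a hairpin was missing from the hairpins searched, so its arms were looked for only in those of other genes. The longest stretch that the Mir16-1 and Mir16-2 hairpins shared had 23 bases and held the whole 5p arm. A read that lies inside this stretch fits both hairpins equally, and the rest of the genome was not searched for it. The stretch and the 3p arms, which tell the hairpins apart, were as follows, with the seed of each arm in capitals.
Shared stretch: uAGCAGCAcguaaauauuggcgu
miR-16-1-3p: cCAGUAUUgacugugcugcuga
miR-16-2-3p: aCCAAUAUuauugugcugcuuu

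Reads with several places have a separate row in the deposited tables. If they were left out of the gene counts, the counts of Mir16-1 and Mir16-2 hold only reads that reach past the stretch or come from elsewhere in the hairpin, and both are then understated; this was not tested. Outside this pair, the longest stretch between any 2 of the 5 hairpins compared, which leave out Mir15a, had 12 bases, and between Mir195a and any other RefSeq hairpin 16 bases, with Mir195b.

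The loci have the same plan but different settings. On mm10, Mir15a (ENSMUSG00000093007.1) lies at chr14:61632027-61632110 and Mir16-1 (ENSMUSG00000092995.1) at chr14:61631880-61631972, both on the minus strand and 54 bases apart. Mir15a falls in an intron of Dleu2, a long non-coding transcript, and Mir16-1 overlaps 1 annotated Dleu2 exon. Mir15b (ENSMUSG00000065580.2, chr3:69009772-69009835) and Mir16-2 (ENSMUSG00000065606.1, chr3:69009902-69009996) are 66 bases apart on the plus strand. Both lie in an intron of Smc4, which encodes a condensin subunit needed for chromosome compaction. Mir497 (ENSMUSG00000105220.1, chr11:70234717-70234800) and Mir195a (ENSMUSG00000065411.2, chr11:70235042-70235135) are 241 bases apart on the plus strand, with no annotated host gene in GENCODE M21. Mir497 is overlapped on the other strand by a further miRNA gene, Mir497b.

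**Figure D1:**
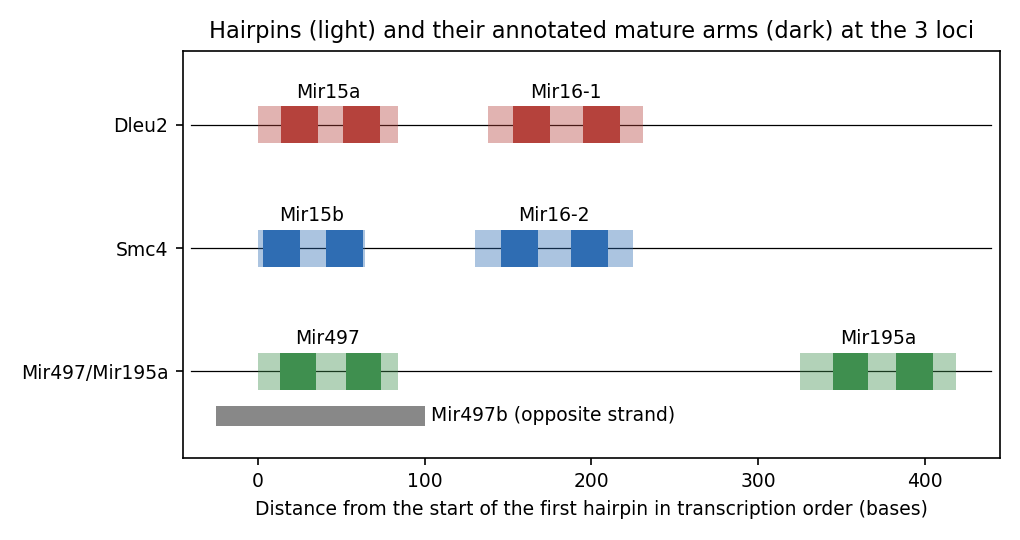
Position of the hairpins (light boxes) and their annotated mature arms (dark boxes) at the 3 loci, in bases from the start of the first hairpin in transcription order. The gaps are 54 bases at the Dleu2 locus, 66 at the Smc4 locus and 241 at the Mir497/Mir195a locus, where Mir497b lies under Mir497 on the other strand.

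Levels are counts on the strand of the gene per 1000000 such counts on all miRNA genes (CPM). The total behind them was 27661907 counts in replicate 1 and 15025315 in replicate 2. A single gene, Mir21a, took 23.1% of replicate 1 and 53.5% of replicate 2, which moves the CPM of every other gene, and multi-mapping reads made up 33.4% and 22.8% of all reads. Of 8 skeletal muscle markers, Mir206 and Mir133b were detected, and the list summed to 2649 and 1050 CPM. The blood list summed to 220 and 126 CPM with 2 of 5 genes detected, the single endothelial gene to 213 and 134 CPM, and the epithelial list to 20.9 and 16.8 CPM with 3 of 5 detected. None of 6 neuronal genes was detected, and 5 of them had no read. The miR-1a, miR-133a, miR-9 and miR-124a markers have several gene copies each, so low counts set no limit on them. A read under 30 nucleotides covers 1 arm of a hairpin of 64 to 95 bases, so CPM was not divided by length. Capture of single sequences was not measured, so differences between hairpins are differences in reads. In bulk RNA, fewer cells with a miRNA and less of it per cell cannot be told apart.

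All 6 hairpins were detected, at 1 CPM or more, in both libraries, as were 320 of all 2202 genes. Together they took 1.06% of the counts in replicate 1 (exact 95% interval 1.05 to 1.06) and 0.631% in replicate 2 (0.627 to 0.635), a mean of 0.844% ± 0.302 (SD, n = 2). The intervals are Clopper-Pearson and hold counting error alone, because copies made by PCR cannot be told from separate molecules here. By level the hairpins stood between rank 34 and rank 84 of 2202 genes in replicate 1 and between rank 44 and rank 77 in replicate 2. In this sum and these ranks, Mir16-1 and Mir16-2 may lack the reads inside their shared stretch.

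The Dleu2 locus held the largest part of the members' reads, 60.4% in replicate 1 and 46.5% in replicate 2. Mir15a, the first hairpin of the Dleu2 transcript, was the highest of the 6 with 152704 counts in replicate 1 and 29986 in replicate 2, or 5520 CPM (exact 95% interval 5493 to 5548) and 1996 CPM (1973 to 2018). Mir16-1, which gives the shared miR-16-5p, had 24023 and 14048 counts, or 868 CPM (858 to 879) and 935 CPM (920 to 951). Mir15a was thus far higher in replicate 1, while Mir16-1 differed little between the libraries on this scale. The means were 3758 ± 2492 CPM for Mir15a and 902 ± 47.0 CPM for Mir16-1 (SD, n = 2).

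At the Smc4 locus the levels were lower and the hairpins closer to each other. Mir15b, the paralog of Mir15a, had 43736 and 16630 counts, or 1581 CPM (1566 to 1596) in replicate 1 and 1107 CPM (1090 to 1124) in replicate 2. Mir16-2, the second source of miR-16-5p, had 18886 and 10698 counts, or 683 CPM (673 to 693) and 712 CPM (699 to 726). As at the Dleu2 locus, the hairpin of the miR-15 type was higher in replicate 1 and the miR-16 hairpin was nearly level on the CPM scale; after trimmed-mean (TMM) scaling of the libraries, Mir15b was 1.30-fold and Mir16-2 1.94-fold higher in replicate 2. The means were 1344 ± 335 CPM for Mir15b and 697 ± 20.7 CPM for Mir16-2 (SD, n = 2).

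At the Mir497/Mir195a locus, Mir195a had 33618 and 15701 counts, or 1215 CPM (1202 to 1228) in replicate 1 and 1045 CPM (1029 to 1061) in replicate 2. Mir497 had 19692 and 7694 counts, or 712 CPM (702 to 722) and 512 CPM (501 to 524), and was the lowest of the 6 in replicate 2. Both were higher in replicate 1 on this scale. The means were 1130 ± 120 CPM for Mir195a and 612 ± 141 CPM for Mir497 (SD, n = 2).

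**Figure D2:**
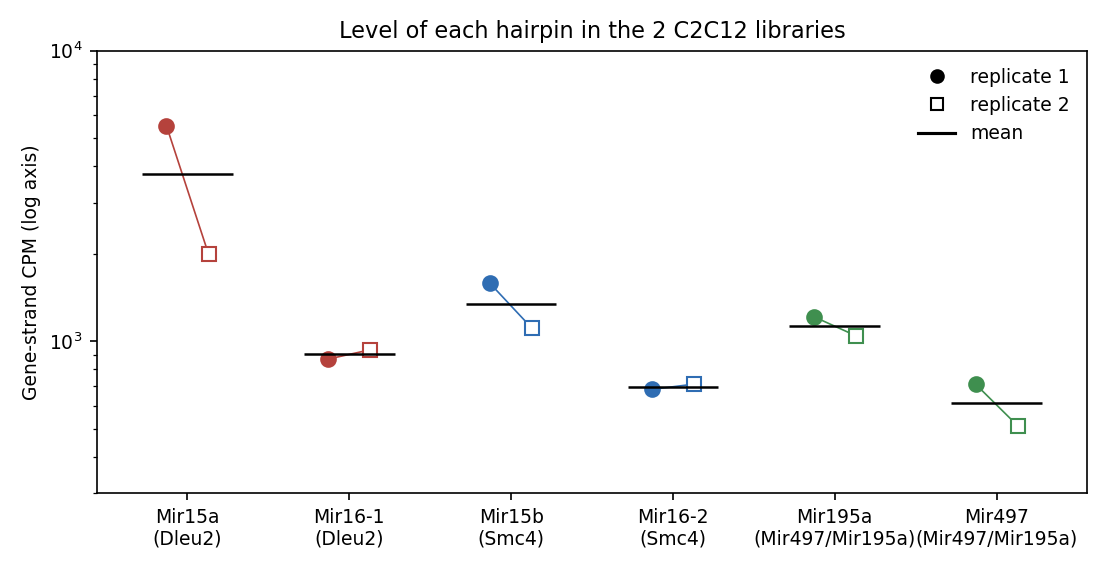
Gene-strand CPM of each hairpin on a log axis, with replicate 1 as filled circles, replicate 2 as open squares and the mean as a bar. Mir15a stands above the other 5 hairpins in both libraries, at 5520 and 1996 CPM, and the points of Mir16-1 and of Mir16-2 lie closest together.

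The order of the members was nearly the same in both libraries. Inside a library the scaling cancels, so members were compared by their log2 ratio in each library; with 2 libraries an exact paired test cannot go below a two-sided p of 0.5, and no test was made. A difference was called separated where it had the same sign in both libraries and its mean exceeded its SD. Of the 15 pairs of members, 14 were separated in this sense. The pairs reuse the same members, so they are not independent. Pairs of other genes were not compared, so this count has no background to be read against. Mir15a came first, followed by Mir15b, Mir195a and Mir16-1. The exception was the last pair, Mir16-2 and Mir497, whose order turned round: Mir16-2 was 0.959-fold the level of Mir497 in replicate 1 and 1.39-fold in replicate 2. In this order the places of Mir16-1 and Mir16-2 rest on the reads counted, which may leave out those inside their shared stretch.

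The neighbours in the middle of this order lay close together, while Mir15a stood apart. Mir15b exceeded Mir195a by 1.30-fold in replicate 1 and 1.06-fold in replicate 2, a mean log2 difference of 0.23 ± 0.21 (SD, n = 2). Mir195a exceeded Mir16-1 by 1.40-fold and 1.12-fold. Mir15a exceeded Mir15b, the next below it, by 3.49-fold and 1.80-fold.

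The loci kept the order Dleu2, Smc4, Mir497/Mir195a in both libraries. The Dleu2 locus had 6389 and 2931 CPM, the Smc4 locus 2264 and 1819 CPM, and the Mir497/Mir195a locus 1927 and 1557 CPM. The Dleu2 locus exceeded the Smc4 locus by 2.82-fold in replicate 1 and 1.61-fold in replicate 2, a mean log2 difference of 1.09 ± 0.57 (SD, n = 2). It exceeded the Mir497/Mir195a locus by 3.32-fold and 1.88-fold. The ratio of the Smc4 to the Mir497/Mir195a locus was nearly constant, at 1.17-fold in both libraries, a mean log2 difference of 0.23 ± 0.006. The Dleu2 and Smc4 totals each hold a miR-16 hairpin, whose counts may leave out reads of the shared stretch. The Mir497/Mir195a total holds no such hairpin, and the effect on these folds was not tested.

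In the reads counted, Mir15a carried most of the lead of the Dleu2 locus. Reads inside the stretch shared by Mir16-1 and Mir16-2 may be missing from these. Without the miR-15 hairpins, Mir16-1 exceeded Mir16-2 by only 1.27-fold in replicate 1 and 1.31-fold in replicate 2, a mean log2 difference of 0.37 ± 0.03 (SD, n = 2). The ratio of Mir15a to Mir15b moved between the libraries, with a mean log2 difference of 1.33 ± 0.67.

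Each locus gave unequal reads from its hairpins. Mir15a made up 86.4% of the Dleu2 locus in replicate 1 (exact 95% interval 86.2 to 86.6) and 68.1% in replicate 2 (67.7 to 68.5). Mir15b made up 69.8% of the Smc4 locus (69.5 to 70.2) and 60.9% (60.3 to 61.4). In both loci the miR-15 hairpin held the larger share, and that share was smaller in replicate 2 by more than counting error. Reads inside the stretch shared by Mir16-1 and Mir16-2 may be missing from these counts, which would overstate the miR-15 shares. Multi-mapping reads made up 33.4% and 22.8% of all reads in replicate 1 and replicate 2, and their effect on the shares was not tested.

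Mir195a, the downstream hairpin of its locus, made up 63.1% of the Mir497/Mir195a locus in replicate 1 (62.7 to 63.5) and 67.1% in replicate 2 (66.5 to 67.7). Its share was larger in replicate 2, again beyond counting error. The shares averaged 77.3% ± 12.9 for Mir15a, 65.3% ± 6.36 for Mir15b and 65.1% ± 2.86 for Mir195a (SD, n = 2). The split at the Dleu2 locus thus had the widest spread between replicates and that at the Mir497/Mir195a locus the narrowest.

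**Figure D3:**
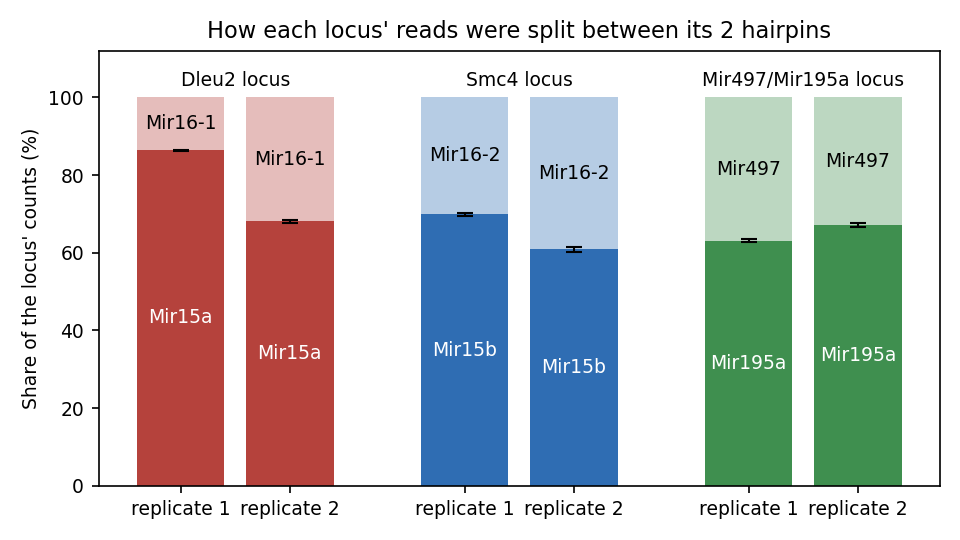
Share of each locus' counts on its hairpins in each library, with exact 95% intervals at the border. Mir15a holds 86.4% of the Dleu2 locus in replicate 1 and 68.1% in replicate 2, while Mir195a holds 63.1% and 67.1% of its locus.

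The libraries were set side by side over all genes after TMM scaling, which raised the log2 ratio of replicate 2 over replicate 1 by 0.90 against library totals. Of the 6 members, 1 lay at least 2-fold apart between the libraries, against 20.9% of the 556 genes with at least 10 counts and 10.9% of the 138 genes that averaged 100 CPM or more. That member was Mir16-1, at 2.01-fold higher in replicate 2 (log2 ratio 1.00, counting SE 0.02), just past the limit. Mir16-2 lay just inside it at 1.94-fold higher (log2 ratio 0.96, counting SE 0.02).

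Mir195a was 1.60-fold, Mir497 1.34-fold and Mir15b 1.30-fold higher in replicate 2 after TMM scaling, and Mir15a was 1.48-fold lower (log2 ratio -0.57, counting SE 0.01). The median log2 ratio was 0.55 over the 6 members and 0.05 over the 556 genes. The median size of the log2 ratio among those 138 genes was 0.29, and the SD of their log2 ratios was 0.69. By library totals only Mir16-1 and Mir16-2 were higher in replicate 2, by 1.08-fold and 1.04-fold. Mir15b, Mir195a and Mir497 then had log2 ratios of -0.51, -0.22 and -0.48, and Mir15a, at 2.77-fold lower, was the 1 member at least 2-fold apart, against 39% of the 556 genes. Mir15a was therefore lower and the miR-16 hairpins were higher in replicate 2 under both scalings, while the direction of the other 3 turned with the scaling.

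**Figure D4:**
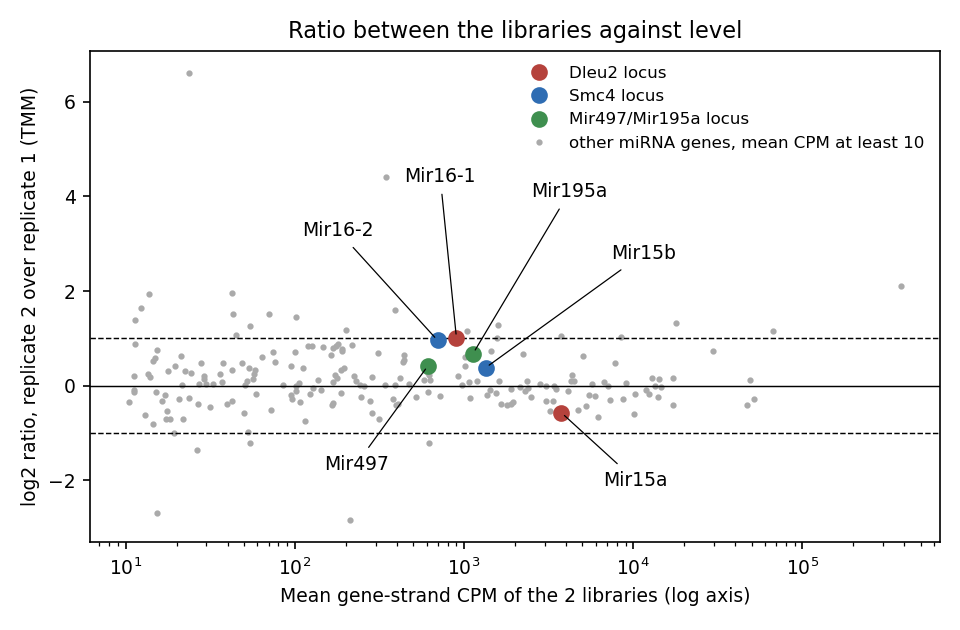
TMM-scaled log2 ratio of replicate 2 over replicate 1 against mean CPM, for the 6 members (coloured by locus) among the 210 genes that averaged 10 CPM or more; dashed lines mark 2-fold. Mir16-1 and Mir16-2 lie together near the upper line at 1.00 and 0.96, and Mir15a lies below 0 at -0.57.

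The seed of the 6 members is not theirs alone. Of the RefSeq mature arms, those of 11 genes held it, and all 11 were in the tables. Mir322, the X-linked family member that is known to promote cell cycle exit in myoblasts, was counted at 9199 CPM in replicate 1 and at 4933 CPM in replicate 2. The 6 members together had 10580 and 6306 CPM, which exceeded Mir322 by 1.15-fold and 1.28-fold. They held 53.5% and 56.1% of the reads on genes with this seed. The members' sum may leave out reads inside the stretch shared by Mir16-1 and Mir16-2. The effect on these folds and shares was not tested. Mir195b, on another chromosome, had 1 count in each library, and Mir6342, Mir6353 and Mir6419 had none, which allows up to 0.108 CPM in replicate 1 and 0.2 CPM in replicate 2.

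Other miRNAs linked to the cell cycle were set beside the members. Against 320 of all 2202 genes, all 9 brakes on the list outside the 6 were detected, among them Mir322 with the same seed. The highest was Mir34c, a target of p53, with 21367 and 12908 CPM, followed by Mir26b, a repressor of Ezh2, with 14882 and 5318 CPM. All 11 genes of proliferation clusters were detected, led by Mir17, of the cluster known as an oncogene, with 17903 and 10609 CPM, and Mir221, a repressor of the inhibitor p27, with 16707 and 7930 CPM. The members summed to 10580 and 6306 CPM, below the sums of 49594 and 25389 CPM on the brake list and of 70859 and 37467 CPM on the proliferation list. The sums span unlike numbers of genes, 6, 9 and 11, and were not corrected for reads with several places. After TMM scaling none of these 20 genes lay at least 2-fold apart between the libraries, against 20.9% of the 556 genes with at least 10 counts and 10.9% of the 138 that averaged 100 CPM or more, and the median log2 ratio was 0.06 for the brakes and 0.01 for the proliferation genes. By library totals 2 of the 9 brakes, Mir26b and Mir449a, and 2 of the 11 proliferation genes, Mir20a and Mir221, were at least 2-fold lower in replicate 2, against 39% of the 556 genes apart in either direction. The medians were then -0.84 and -0.89.

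Reads on the opposite strand were few at the member loci. Mir15a, Mir16-1, Mir15b and Mir16-2 had 0 opposite-strand counts in both libraries, and Mir195a had 3 and 0. Mir497 had 21 and 19, equal in number to the reads counted on Mir497b, beside 19692 and 7694 on its own strand. Counted without strand, Mir497 and Mir497b both had 0 reads.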

How the data were processed

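Small RNA of 2 C2C12 replicates was analysed from the deposited tables, which hold raw read counts per miRNA gene as the authors made them, on either strand, on the strand of the gene and on the opposite one. Per the file headers of the accompanying readme files, the build is mm10 with GENCODE M21; which aligner or counter was used is not given in the sources used here. All 2202 identifiers matched GENCODE M21. Rows that name no gene held 49.7% and 38.8% of the reads of replicate 1 and replicate 2 and stayed out of totals. The gene-strand column was used. Depth was 27661907 and 15025315 counts; a count of 0 allows 3 counts. Detection meant 1 CPM or more in each library. Log2 ratios used TMM factors from edgeR 4.0.16 (R 4.3.3), a prior count of 0.5 and genes with at least 10 counts over both libraries. They were tested on simulated data, drawn with counting error alone from the same mean proportions apart from set changes. The simulation thus held no spread between replicates. No test between groups was made. Sequences came from RefSeq (GRCm38.p6). The members, lists and alternatives were chosen with earlier results of these data known. Named genes were the members, genes with their seed or overlapping them, the 2 highest of each comparison list, and the 2 genes, no members, nearest to each member in log2(CPM + 1) over both libraries. The alternatives were other denominators, DESeq2 1.42.0 size factors, the either-strand counts, other filters and priors, and leaving out each library.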

Additional observations from a re-analysis of the deposited data

Results flagged for a closer look

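Values outside the gene-strand counts exceeded the limit of 3 counts in 2 places. On the strand opposite to Mir497 there were 21 reads in replicate 1 and 19 in replicate 2. Multi-mapping reads, which bear on miR-16-5p, numbered 18382947 in replicate 1 and 5599235 in replicate 2, and how many of them came from the members was not tested. No control libraries were analysed here.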

How the results depend on the processing

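The order of the 3 loci and the larger hairpin of each were the same under every alternative that was run on them. A new denominator scales the loci of a library alike, and both libraries had the same order and larger hairpins. These alternatives and leaving out a library therefore could not change the outcome. The shares were run only on either-strand counts and single libraries, and no alternative took in multi-mapping reads. Against 4660, 2041 and 1742 CPM for the Dleu2, Smc4 and Mir497/Mir195a loci, leaving Mir21a out of the denominator gave 7304, 3427 and 2927 CPM. With all reads as the denominator they had 2502, 1125 and 960 CPM. In the either-strand counts, where Mir497 and the overlapping Mir497b both have 0 reads, the Mir497/Mir195a locus had 1158 CPM, Mir195a 100% of it, and the log2 differences of the Dleu2 and Smc4 loci over it were 1.94 and 0.85; no log2 ratio of Mir497 could be had there. The 116 genes at least 2-fold apart became 217 by library totals and 74 with a prior count of 5, and 307 of 804 and 41 of 299 genes with minima of 1 and 100 counts. With DESeq2 size factors the log2 ratio of Mir16-1 was 0.94, under the 2-fold limit. Single libraries gave 2931 to 6389 CPM for the Dleu2 locus. No paired analysis was possible because there is 1 group, so no groups share replicate numbers. With 2 libraries, the spread of a level or a ratio is itself poorly known.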

Other observations

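Among genes detected in both libraries, the 6 members left out, those closest in level to a member in log2(CPM + 1) over the 2 libraries were as follows. Mir15a lay nearest to Mir30e, with 4674 CPM in replicate 1 and 1999 CPM in replicate 2, at a distance of 0.24, and next to Mir125a at 0.29. Mir497 had the closest match, Mir671 with 726 and 478 CPM at a distance of 0.10, followed by Mir351 at 0.14. Mir195a lay nearest to Mir182 at 0.23 and Mir181d at 0.31. Mir15b lay nearest to Mir145a at 0.30 and Mir107 at 0.33, and Mir16-1 to Mir674 at 0.30 and Mir182 at 0.36. Mir16-2 was farthest from its nearest genes outside the family loci, Mir671 at 0.58 and Mir351 at 0.59. These distances rest on 2 libraries.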
